A study of Mus musculus with 2 samples.

Results

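Expression of 10 genes that restrain MAP kinase signalling was compared between spleen cells of infected Ch25h-/- and C57BL/6 mice. The genes were chosen by name from the deposited table of 30538 genes, which holds a row for each of them: the dual-specificity phosphatase genes Dusp1, Dusp2, Dusp4, Dusp5, Dusp6, Dusp10 and Dusp16, the Sprouty genes Spry1 and Spry2, and Spred1. The design held 1 RNA-seq library from Ch25h-/- mice, which lack cholesterol 25-hydroxylase, and 1 from C57BL/6 mice. All mice had received 100000 *Listeria monocytogenes* intravenously, and about 100000 CD11b+, Ly6G-, Ly6C-low spleen cells, called resident splenic macrophages in the labels, were sorted on day 3. Neither age, sex, an uninfected group nor the number of mice behind each library is given in the labels.

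MAP kinases (ERK, p38 and JNK) relay signals from growth factor, cytokine and Toll-like receptors when both a threonine and a tyrosine of their activation loop carry phosphate. MAP kinase phosphatases of the DUSP family remove those phosphates, and many of their genes are themselves switched on by MAP kinase activity, which closes a negative feedback loop. Sprouty and Spred proteins act further upstream, at the step from receptor tyrosine kinases to Ras and Raf. In macrophages the best known member is DUSP1, which limits p38 and JNK activity after bacterial stimuli and thereby restrains cytokine production.

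The Ch25h-/- library held 15986392 counts and the C57BL/6 library 16957371. Levels are given as CPM, counts relative to library size after TMM scaling, and ratios are Ch25h-/- over C57BL/6. Each genotype has 1 library, so the ratios have no replicate check and no p-value. The 95% intervals given cover counting error only, not variation between mice, sorts or library preparations. A gene is called lower or higher when the ratio is at least 2-fold and its exact interval lies on 1 side of no difference. The targeted gene Ch25h had 0 counts in the Ch25h-/- library and 3 in the C57BL/6 library, too few to check the genotype labels. Transcripts of 10 splenic macrophage markers were all present, but summed to 125 CPM in the Ch25h-/- library and 231 CPM in the C57BL/6 library. Transcripts of 10 natural killer (NK) cell markers summed to 20191 CPM in the Ch25h-/- library and 12515 CPM in the C57BL/6 library, so RNA of cells other than macrophages was abundant in both sorts. In such bulk samples fewer cells of a type and less RNA per cell cannot be told apart.

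All 10 genes passed the filter of a mean of 1 CPM. Dusp1, Dusp16 and Dusp4 were called lower in the Ch25h-/- library, and 0 of the 10 were called higher. Among all 11972 genes that passed the filter, 5.77% were called lower and 2.07% higher. All 7 DUSP genes had a log2 ratio under 0, between -1.71 and -0.14, while Spry2 stood apart on the other side at 0.76. The median log2 ratio of the 10 genes was -0.46, against 0.01 for all genes that passed the filter. At a 1.5-fold limit the same DUSP genes were called lower, where 11.2% of all genes were, and Spry2 was called higher, where 7.35% were.

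**Figure D1:**
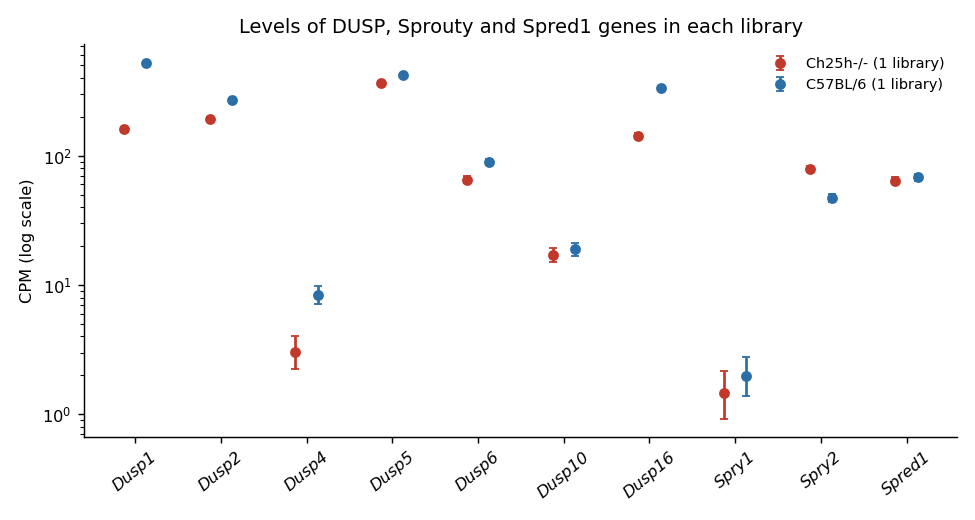
CPM of the 10 genes in the Ch25h-/- library (red) and the C57BL/6 library (blue) on a log scale; bars are exact 95% Poisson intervals of the counts. Dusp1, Dusp4 and Dusp16 lie well below their C57BL/6 level in the Ch25h-/- library, and Spry2 lies above it.

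Dusp1 encodes the nuclear phosphatase MKP-1, an immediate early gene product that acts on p38, JNK and ERK. It had the lowest ratio of the 10 genes. Dusp1 (ENSMUSG00000024190, GRCm38 chromosome 17, 26505590 to 26562128, minus strand) had 2530 counts in the Ch25h-/- library and 8924 in the C57BL/6 library. These equal 160 CPM (95% interval 154 to 166) in Ch25h-/- cells and 522 CPM (511 to 532) in C57BL/6 cells. Dusp1 was thus 3.27-fold lower in Ch25h-/- cells, at a log2 ratio of -1.71 (interval -1.77 to -1.64), and 1.73% of the genes that passed the filter had a still lower ratio. The intervals of the 2 levels are far apart.

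The sequence just upstream of the Dusp1 start is shown because this gene is well known for its cAMP response elements, which bind CREB and related factors. The 250 bases before the RefSeq start (GRCm38.p6, chr17:26508473-26508722, minus strand) read as follows, with each TGACG, the full palindrome TGACGTCA and the E-box CACGTG in capitals.
Dusp1: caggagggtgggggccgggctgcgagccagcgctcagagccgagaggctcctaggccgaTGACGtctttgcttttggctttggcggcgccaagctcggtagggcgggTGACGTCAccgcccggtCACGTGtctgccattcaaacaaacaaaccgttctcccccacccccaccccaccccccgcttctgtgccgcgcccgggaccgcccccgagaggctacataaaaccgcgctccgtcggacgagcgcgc
The palindrome TGACGTCA begins 143 bases before the start. A further TGACG begins 191 bases before it, and CACGTG lies at 126 bases. On either strand TGACGTCA occurs in 2.65% of 11470 promoter windows of genes that passed the filter, TGACG in 26.6% of them (a TGACGTCA always contains it), and CACGTG in 8.30%. Of the 9 members with a promoter in the table, only Dusp1 holds TGACGTCA. The annotation also has a Dusp1 transcript that starts farther upstream, so this window lies inside the annotated gene.

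Dusp1 mRNA is short-lived, and AU-rich elements of its 3′ untranslated region (3′UTR) are bound by tristetraprolin, the product of Zfp36. The 7-base element TATTTAT occurs 3 times in the 690 bases of the Dusp1 3′UTR (GENCODE M21 coding transcript). These sites are printed with 9 bases on each side, and the element is in capitals.
Site at base 104 after the stop codon (GRCm38 chr17:26506161-26506185, minus strand): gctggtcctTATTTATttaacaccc
Site at base 393 (chr17:26505872-26505896, minus strand): ttttaccttTATTTATttttgtgta
Site at base 589 (chr17:26505676-26505700, minus strand): atgtttgttTATTTATgatctgaag
Among 1925 genes that passed the filter and have a 3′UTR of 500 to 900 bases, 19.1% hold the element at least once and 1.04% at least 3 times. Zfp36 itself was called lower, with 472 CPM in Ch25h-/- cells and 982 CPM in C57BL/6 cells (log2 ratio -1.06, interval -1.10 to -1.02).

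Of the other nuclear, inducible phosphatases, Dusp5 and Dusp2 had log2 ratios much closer to 0 than Dusp1, and Dusp4 did not. Dusp5 encodes a nuclear phosphatase selective for ERK and had the most counts of the DUSP genes in the Ch25h-/- library. It had 5825 counts (368 CPM, interval 358 to 377) in Ch25h-/- cells and 7191 counts (420 CPM, 411 to 430) in C57BL/6 cells. The log2 ratio of Dusp5 was -0.19 (interval -0.24 to -0.14), a shift larger than counting error but only 1.14-fold. Annotated exons of a gene on the opposite strand cover 547 bases of Dusp5, and whether counting used strand is not given.

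Dusp2 encodes PAC-1, a nuclear phosphatase first known from activated lymphocytes and also induced in myeloid cells. It had 3028 counts in the Ch25h-/- library and 4641 in the C57BL/6 library, or 191 CPM (184 to 198) and 271 CPM (263 to 279) in Ch25h-/- and C57BL/6 cells. The log2 ratio of Dusp2 was -0.50 (interval -0.57 to -0.44), 1.42-fold lower and short of the 2-fold limit. Dusp4, the gene of the nuclear phosphatase MKP-2, was scarce and called lower. It had 48 counts (3.03 CPM, interval 2.23 to 4.02) in Ch25h-/- cells and 144 counts (8.42 CPM, 7.10 to 9.91) in C57BL/6 cells. Its log2 ratio of -1.47 has a wide interval, from -1.98 to -0.99, so that a difference just under 2-fold is within counting error.

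Ratios of gene pairs within a library do not depend on scaling between libraries. They were computed for 19 pairs, chosen with these values known. There were 0.434 Dusp1 counts per Dusp5 count in the Ch25h-/- library, against 1.24 in the C57BL/6 library, a log2 difference of -1.51 (95% interval -1.60 to -1.43). For Dusp1 over Dusp2 the counts stood at 0.836 and 1.92 in the Ch25h-/- and C57BL/6 libraries, a log2 difference of -1.20 (-1.29 to -1.11). Dusp1 was therefore lower relative to both of these nuclear relatives in the Ch25h-/- library. The Dusp1 to Dusp4 ratio differed by -0.23, with an interval from -0.71 to 0.24 that includes no difference.

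The sequence upstream of Dusp5 is shown as the contrast to Dusp1, since Dusp5 is an ERK-induced gene that was nearly level. The 250 bases before its RefSeq start (GRCm38.p6, chr19:53528895-53529144, plus strand) have adjoining CArG boxes, the binding element of serum response factor, and a TGACG on the reverse strand, all in capitals.
Dusp5: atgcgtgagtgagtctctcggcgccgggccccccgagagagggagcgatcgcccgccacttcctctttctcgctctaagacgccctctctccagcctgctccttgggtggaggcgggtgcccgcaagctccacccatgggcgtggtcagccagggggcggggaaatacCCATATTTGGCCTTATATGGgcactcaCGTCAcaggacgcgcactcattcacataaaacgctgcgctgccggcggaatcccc
The CArG boxes begin 82 and 72 bases before the start, and TGACG on the reverse strand lies at 55 bases. A CArG box occurs in 1.05% of the promoter windows of genes that passed the filter, and among the 9 members in the Dusp5 window only. The element TATTTAT does not occur in the 1109 bases of the Dusp5 3′UTR. It is also absent from the 3′UTRs of Dusp4 and Dusp16, which were called lower.

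Dusp6 encodes the cytoplasmic phosphatase MKP-3, which binds and inactivates ERK and is widely used as a readout of ERK activity. It had 1032 counts (65.1 CPM, interval 61.2 to 69.2) in the Ch25h-/- library and 1536 counts (89.8 CPM, 85.3 to 94.4) in the C57BL/6 library. The log2 ratio was -0.46 (interval -0.58 to -0.35), or 1.38-fold lower, and Dusp6 was not called. The Dusp2 to Dusp6 ratio differed by less than counting error, at 2.93 and 3.02 in the Ch25h-/- and C57BL/6 libraries (log2 difference -0.04, interval -0.17 to 0.09).

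Dusp16 and Dusp10 encode MKP-7 and MKP-5, phosphatases that act mainly on JNK and p38. Of these genes, Dusp16 was called lower and Dusp10 was not. Dusp16 (ENSMUSG00000030203, GRCm38 chromosome 6, 134715468 to 134792625, minus strand) had 2261 counts in the Ch25h-/- library and 5683 in the C57BL/6 library. Its level was 143 CPM (137 to 149) in Ch25h-/- cells and 332 CPM (324 to 341) in C57BL/6 cells, a 2.33-fold lower level at a log2 ratio of -1.22 (interval -1.29 to -1.15). Of the genes that passed the filter, 4.04% had a lower ratio.

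Dusp10 had 271 counts (17.1 CPM, interval 15.1 to 19.3) in Ch25h-/- cells and 323 counts (18.9 CPM, 16.9 to 21.1) in C57BL/6 cells. Its log2 ratio of -0.14 had an interval from -0.38 to 0.10, so a difference was not detectable at this depth. There were 8.34 Dusp16 counts per Dusp10 count in the Ch25h-/- library and 17.6 in the C57BL/6 library, a log2 difference of -1.08 (interval -1.32 to -0.83).

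The sequence upstream of Dusp16, the other abundant gene called lower, holds 1 TGACG, in capitals (GRCm38.p6, chr6:134792629-134792878, minus strand).
Dusp16: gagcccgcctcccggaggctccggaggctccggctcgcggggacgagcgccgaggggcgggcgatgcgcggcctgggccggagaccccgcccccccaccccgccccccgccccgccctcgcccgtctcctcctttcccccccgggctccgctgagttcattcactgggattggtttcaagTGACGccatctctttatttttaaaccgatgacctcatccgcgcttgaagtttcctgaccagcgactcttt
This TGACG begins 70 bases before the start. Among the 9 members with a promoter window, 3 hold TGACG (Dusp1, Dusp5 and Dusp16), and these had log2 ratios of -1.71, -0.19 and -1.22. CACGTG occurs in the windows of Dusp1 and Dusp2. The AP-1 site TGANTCA (in 4.52% of the 11470 windows), the ETS-type sequence CCGGAA (22.1%) and the NF-kB consensus (8.96%) do not occur in the window of any of the 9. This says only that these letters are not there. The shorter ETS core GGAA was not counted. The Dusp5 window holds it on both strands, and it also occurs in the windows of Dusp2, Dusp16 and Spry2. Across the 10 members' 3′UTRs, TATTTAT occurs in 5 (Dusp1, Dusp2, Spry1, Spry2 and Spred1), and in 28.0% of 11176 coding genes that passed the filter. Dusp1 and Spred1 hold it 3 times, Spry1 and Spry2 2 times and Dusp2 1 time. These genes include Dusp1, called lower, and Spred1 and Spry2, which were not.

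Because Dusp1 and Dusp16 were lower and Dusp5 was nearly level, the make-up of the DUSP counts differed between the libraries. Dusp1 held 16.9% of the counts of the 7 DUSP genes in Ch25h-/- cells, with an exact binomial interval of 16.3 to 17.5%, and 31.4% in the C57BL/6 library (30.8 to 31.9%). Dusp5 held 38.8% (38.1 to 39.6%) in the Ch25h-/- library and 25.3% (24.8 to 25.8%) in the C57BL/6 library. Dusp16 held 15.1% (14.5 to 15.7%) in Ch25h-/- cells and 19.98% (19.5 to 20.5%) in C57BL/6 cells. By counts, which are not adjusted for gene length, Dusp5 thus took the leading place in the Ch25h-/- library that Dusp1 had in the C57BL/6 library. Per kilobase of annotated exon, Dusp5 also led in the C57BL/6 library, with 31.3% against 29.0% for Dusp1. Together the 7 genes summed to 947 CPM in Ch25h-/- cells and 1662 CPM in C57BL/6 cells (log2 ratio -0.81, interval -0.84 to -0.78).

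**Figure D2:**
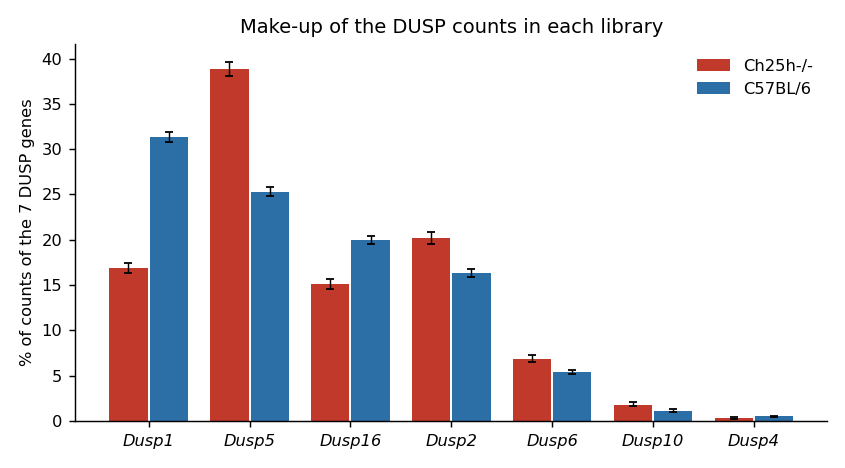
Share of each gene in the summed counts of the 7 DUSP genes, in percent, for the Ch25h-/- library (red) and the C57BL/6 library (blue); error bars are exact 95% binomial intervals. Dusp5 leads with 38.8% in the Ch25h-/- library, and Dusp1 leads with 31.4% in the C57BL/6 library. Counts are not adjusted for gene length.

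Per kilobase of annotated exon, which allows levels of different genes to be compared, Dusp5, Dusp2 and Dusp1 were the 3 highest of the 10 genes in both libraries. In the Ch25h-/- library Dusp5 had 149 CPM per kilobase, Dusp2 95.4 and Dusp1 48.2. In the C57BL/6 library Dusp5 had 170 CPM per kilobase, Dusp1 158 and Dusp2 135. With the length of 1 coding transcript in place of the union of all exons, Dusp1 had 80.2 CPM per kilobase in the Ch25h-/- library, still in the third place, and 262 in the C57BL/6 library, ahead of Dusp5 at 170 and Dusp2 at 168. The place of Dusp1 in C57BL/6 cells thus depends on the gene model, which was varied after the values were seen.

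Spry2 was next in the Ch25h-/- library with 38.1 CPM per kilobase, followed by Dusp6 (20.8), Dusp16 (18.3), Spred1 (9.43), Dusp10 (5.62), Dusp4 (1.11) and Spry1 (0.500). In the C57BL/6 library Dusp16 came next with 42.6 CPM per kilobase, followed by Dusp6 (28.7), Spry2 (22.5), Spred1 (10.02), Dusp10 (6.21), Dusp4 (3.07) and Spry1 (0.684). Spry2 moved up past Dusp6 and Dusp16 in the Ch25h-/- library. No counting intervals of neighbours in either order overlapped. With the length of 1 transcript, Dusp16 (28.0 CPM per kilobase) stood above Dusp6 (23.3) in the Ch25h-/- library too.

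Spry2, which holds back receptor tyrosine kinase signals to ERK and binds the ubiquitin ligase CBL, was the 1 gene of the 10 with a ratio above 0. Spry2 (ENSMUSG00000022114, GRCm38 chromosome 14, 105891947 to 105896819, minus strand) had 1260 counts in the Ch25h-/- library and 803 in the C57BL/6 library. These equal 79.5 CPM (interval 75.2 to 84.0) in Ch25h-/- cells and 46.9 CPM (43.7 to 50.3) in C57BL/6 cells. Spry2 was 1.69-fold higher (log2 ratio 0.76, interval 0.63 to 0.89), short of the 2-fold limit, and 4.34% of the genes that passed the filter had a higher ratio.

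Spry1, a close relative of Spry2, was barely present. It had 23 counts (1.45 CPM, interval 0.920 to 2.18) in Ch25h-/- cells and 34 counts (1.99 CPM, 1.38 to 2.78) in C57BL/6 cells, a log2 ratio of -0.45 with an interval from -1.28 to 0.35. At this depth neither a difference nor its direction was detectable for Spry1, and opposite-strand exons cover 710 of its bases. Spred1, which recruits the Ras inhibitor neurofibromin to the membrane, had 1013 counts (63.9 CPM, interval 60.1 to 68.0) in Ch25h-/- cells and 1163 counts (68.0 CPM, 64.1 to 72.0) in C57BL/6 cells. Its log2 ratio was -0.09 (interval -0.21 to 0.03), which includes no difference. The Spry2 to Spred1 ratio of counts was 1.24 in the Ch25h-/- library and 0.690 in the C57BL/6 library, a log2 difference of 0.85 (0.67 to 1.03).

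The 3 other measured genes of the Sprouty and Spred family went both ways, with a median log2 ratio of 0.45. Spry4 had 19.6 CPM in the Ch25h-/- library and 12.4 CPM in the C57BL/6 library (log2 ratio 0.65, interval 0.40 to 0.91). Spred2 had 76.6 CPM in Ch25h-/- cells and 56.0 CPM in C57BL/6 cells (0.45, interval 0.33 to 0.57). Spred3 was called lower, at 7.89 CPM in Ch25h-/- cells and 16.1 CPM in C57BL/6 cells (-1.03, interval -1.34 to -0.72). The proportion of Spry2 to Spry4 did not differ beyond counting error, with 4.06 Spry2 counts per Spry4 count in the Ch25h-/- library and 3.77 in the C57BL/6 library (log2 difference 0.11, interval -0.17 to 0.39).

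Of 17 other dual-specificity phosphatase genes, 12 passed the filter, 1 was called lower and 0 higher, with a median log2 ratio of -0.04. Of all genes that passed the filter, 5.77% were called lower and 2.07% higher, so 1 call among 12 genes is near the background. Dusp9, Dusp15, Dusp21, Dusp26 and Styxl1 were under the filter. The 1 called gene was Dusp28, with 26 counts in the Ch25h-/- library and 61 in the C57BL/6 library (log2 ratio -1.12, interval -1.84 to -0.43). Dusp11, an RNA phosphatase rather than a MAP kinase phosphatase and the most abundant of them, had 269 CPM in Ch25h-/- cells and 245 CPM in C57BL/6 cells (0.13). Dusp7, a cytoplasmic ERK phosphatase like Dusp6, had 47.6 CPM in Ch25h-/- cells and 43.2 CPM in C57BL/6 cells (0.14, interval -0.01 to 0.29).

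The remaining genes of that list ran from -0.62 to 0.71. Dusp14 (-0.62), Dusp3 (-0.39), Dusp12 (-0.20), Styx (-0.09), Dusp19 (-0.05) and Dusp8 (-0.02) had log2 ratios under 0. Dusp18 (0.25), Dusp22 (0.56) and Dusp23 (0.71) had log2 ratios above 0. The intervals of Dusp3, Dusp22 and Dusp23 lay on 1 side of 0.

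**Figure D3:**
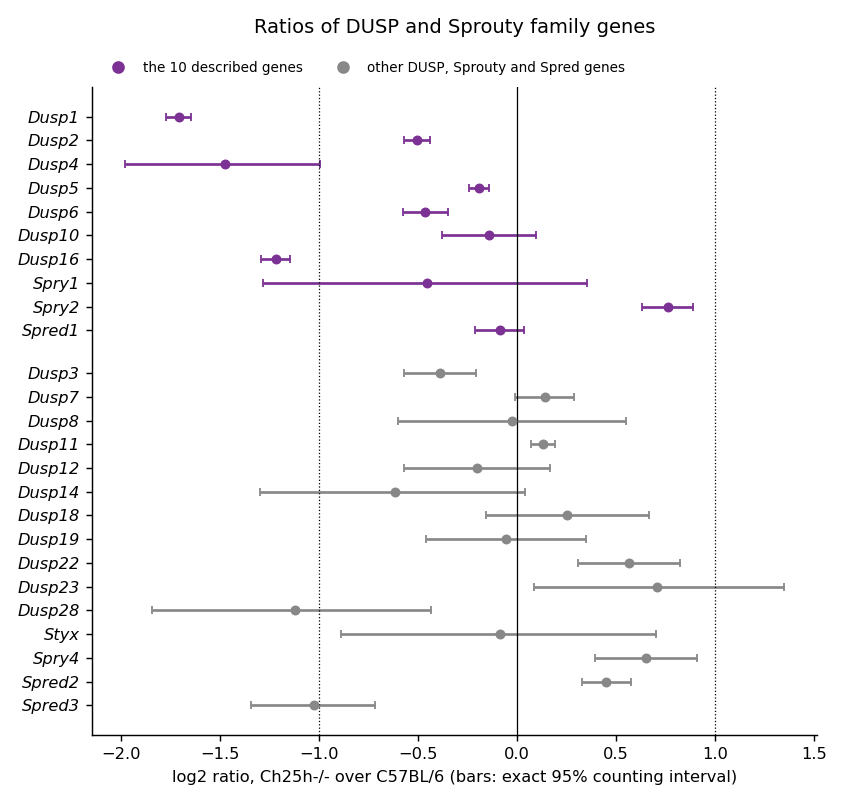
Log2 ratio of Ch25h-/- over C57BL/6 for the 10 described genes (purple) and the other measured DUSP, Sprouty and Spred genes (grey); bars are exact 95% counting intervals and dotted lines mark 2-fold. Dusp1 (-1.71), Dusp4 (-1.47) and Dusp16 (-1.22) lie beyond the lower line, and Spry2 (0.76), Spry4 (0.65) and Spred2 (0.45) lie to the right of 0.

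The lists of kinase cascade genes had medians close to 0. Of 18 genes of the ERK cascade, 0 were called lower and 0 higher, and their median log2 ratio was 0.05. With 5.77% of all genes that passed the filter called lower and 2.07% higher, 0 calls among 18 genes says little. Grb2, the adaptor that links receptors to Ras, led the list in level with 253 CPM in Ch25h-/- cells and 304 CPM in C57BL/6 cells (-0.26). The ERK effector kinase gene Rps6ka3 had 207 CPM in Ch25h-/- cells and 140.4 CPM in C57BL/6 cells (0.56, interval 0.48 to 0.64).

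The 21 genes of the p38 and JNK cascades had a median log2 ratio of -0.03. Of them 1 was called lower and 0 higher, against 5.77% and 2.07% of all genes that passed the filter. It was Mapk12, the gene of p38-gamma, with 48 counts in the Ch25h-/- library and 134 in the C57BL/6 library (log2 ratio -1.37, interval -1.88 to -0.88). Mapk11, which encodes p38-beta, stood at -0.66 without reaching 2-fold. Mapk14, the gene of the main p38 kinase of macrophages, had 219 CPM in Ch25h-/- cells and 195 CPM in C57BL/6 cells (0.16), and Tab2, highest of the list in CPM, stood at 0.10. There were 0.730 Dusp1 counts per Mapk14 count in the Ch25h-/- library and 2.67 in the C57BL/6 library, a log2 difference of -1.87 (-1.97 to -1.78). Dusp16 counts per count of Mapk8, the gene of JNK1, were 5.72 in the Ch25h-/- library and 11.9 in the C57BL/6 library, a log2 difference of -1.06 (-1.26 to -0.85).

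Among 9 genes of proteins that work with Sprouty and Spred, 8 passed the filter and none was called, with a median log2 ratio of -0.10. With background shares of 5.77% lower and 2.07% higher, the lack of calls among 8 genes says little. Cblb, the most abundant, had 361 CPM in the Ch25h-/- library and 420 CPM in the C57BL/6 library (-0.22). The ubiquitin ligase gene Siah2 stood at -0.75 and the Ras GTPase activator gene Rasa1 at 0.53. Nf1, which encodes neurofibromin, was at -0.20 and Cbl at 0.04. Cav1 had 0 counts in both libraries.

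Genes induced by ERK moved unevenly. Of 16 listed, 15 passed the filter, 3 were called lower and 0 higher, with a median log2 ratio of -0.38. Of all genes that passed the filter, 5.77% were called lower and 2.07% higher, with a median of 0.01. The AP-1 genes Fosb (126 CPM in Ch25h-/- cells against 571 CPM in C57BL/6 cells, log2 ratio -2.18) and Fos (205 against 496 CPM, -1.27) and the early response gene Ier3 (27.2 against 62.1 CPM, -1.19) were called lower. Junb, the most abundant, had 397 CPM in the Ch25h-/- library and 518 CPM in the C57BL/6 library (-0.38). Egr1, a standard ERK target, was level at 91.7 CPM in Ch25h-/- cells and 91.6 CPM in C57BL/6 cells (0.00, interval -0.10 to 0.11). Relative to Egr1, Dusp1 counts were 1.74 in the Ch25h-/- library and 5.69 in the C57BL/6 library, a log2 difference of -1.71 (-1.83 to -1.59). Relative to Fos the Dusp1 counts were 0.778 and 1.05 in the Ch25h-/- and C57BL/6 libraries, a smaller log2 difference of -0.43 (-0.52 to -0.35).

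Inflammatory mRNAs, most of them known to be stabilised or translated through p38 and its effector kinase MK2, were mostly lower. Their median log2 ratio was -1.28. Of 10 listed, 8 were called lower and 0 higher, against 5.77% and 2.07% of all genes that passed the filter. They were Cxcl1 (10 counts in the Ch25h-/- library and 141 in the C57BL/6 library, -3.71), Ptgs2 (-2.67), Il1b (-1.40), Il6 (-1.36), Cxcl2 (-1.36), Ier3 (-1.19), Tnf (-1.11) and Zfp36 (-1.06). Ier3 is also in the list of ERK-induced genes, so it was counted in both. Nfkbia stood at -0.67, and Il10 at 0.52 was the 1 gene of the list above 0. Several of these cytokine mRNAs had already been seen to be lower when the list was written, so the count is no independent support. Besides Dusp5 and Spry1, exons on the opposite strand overlap Dusp1 (11 bases), Spred3 (202), Dusp28 (58), Dusp12 (1365), Dusp3 (604), Dusp8 (66), Dusp11 (45), Styx (3878), Rasa1 (12), Junb (173), Zfp36 (125), Il1b (25) and Ch25h (159). Reads of such partners cannot be told apart without strand.

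**Figure D4:**
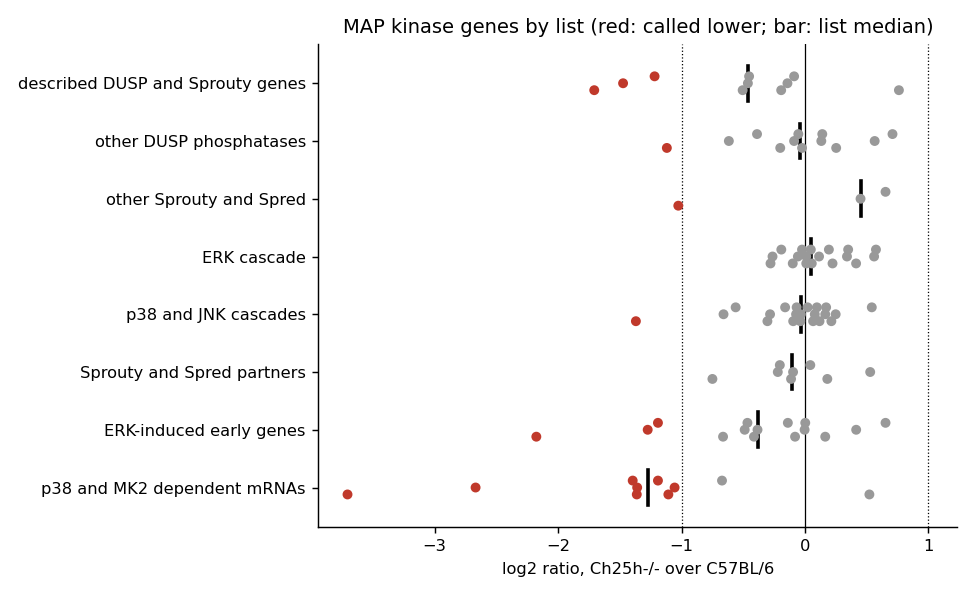
Log2 ratio of Ch25h-/- over C57BL/6 for each measured gene of 8 lists, 1 list per row; red points were called lower, the black bar is the median of the list, and dotted lines mark 2-fold. The medians of the ERK cascade (0.05) and of the p38 and JNK cascades (-0.03) lie near 0, and that of the p38 and MK2 dependent mRNAs lies at -1.28.

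Markers of cell types also differed between the libraries, some lists downward like the DUSP genes and others upward. Their part in the ratios was not tested. The shares of all genes called, 5.77% lower and 2.07% higher, are the background for the counts of markers called. Conventional dendritic cell markers summed to 2705 CPM in the Ch25h-/- library and 5601 CPM in the C57BL/6 library. Most of these sums came from Cd74 (1541 and 2944 CPM in the Ch25h-/- and C57BL/6 libraries) and H2-Aa (462 and 992 CPM). Of 8 measured, 6 were called lower (median log2 ratio -1.36), and Itgax was above 0, at 0.30. Under the filter, Clec9a had 13 and 5 counts and Xcr1 had 6 and 0 in the Ch25h-/- and C57BL/6 libraries. Splenic macrophage markers had a median of -0.93, with 5 of 10 called lower. B cell markers summed to 862 CPM in Ch25h-/- cells and 1399 CPM in C57BL/6 cells, with 1 of 8 called lower and a median of -0.68. Eosinophil markers, at 9.34 CPM in Ch25h-/- cells and 26.8 CPM in C57BL/6 cells, had 2 of 5 called lower and a median of -0.91.

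On the side of Spry2, all 10 NK cell markers had a log2 ratio above 0, with 3 called higher and a median of 0.80. All 10 neutrophil markers were also above 0, with 5 called higher and a median of 0.97, and summed to 2050 CPM in the Ch25h-/- library and 1129 CPM in the C57BL/6 library. Ly6C-high monocyte markers summed to 2960.0 CPM in Ch25h-/- cells and 2043 CPM in C57BL/6 cells, with 2 of 7 called higher and a median of 0.63. The Ly6C-low monocyte list, the one nearest to the gate, summed to 2875 CPM in Ch25h-/- cells and 2386 CPM in C57BL/6 cells. Most of these sums came from Itgal (1784 and 1341 CPM in Ch25h-/- and C57BL/6 cells) and Spn (676 and 471 CPM). Of the 10 markers, 7 had a log2 ratio under 0 and 3 above, with 1 called lower and a median of -0.39. None of 8 T cell markers was called, and their median was -0.01.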

How the data were processed

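Per the labels' protocols, total RNA of the sorted cells was extracted with TRIzol and libraries were prepared from it (KAPA RNA HyperPrep). Tools listed in the submitters' processing notes are GSNAP, featureCounts, Subread 1.5.2, FastQC 0.11.9 and edgeR 3.26.8, on build GRCm38 (mm10). What the authors deposited is a table of raw read counts by gene. How strand and multi-mapping reads were handled is not given in the sources used here.

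Counts were scaled with TMM factors from edgeR 4.0.16 (R 4.3.3). A gene counts as measured from a mean of 1 CPM over both libraries. Ratios use no prior count, a count of 0 is set to a floor of 3 counts, and exact Clopper-Pearson and Poisson intervals come from scipy 1.17.1. Intervals of gene pair ratios are Woolf intervals. The labels name no molecular identifiers, so reads are not independent molecules and intervals cover counting error only. The calculation was tested on simulated Poisson counts. These hold no variation between mice, sorts or libraries, so they cannot show whether the calls would repeat. GENCODE M21 (GRCm38), which holds 30126 of the 30538 gene IDs, gave positions, lengths and 3′UTRs (the coding transcript with the longest coding sequence). Promoters come from RefSeq (GRCm38.p6), which matched 9 of the 10 genes by symbol.

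The 10 genes, the lists and the tests were chosen with earlier results of these data known. The naming rule takes the 10 genes, all measured relatives, and of each other list the called genes, the most abundant gene and the 2 ratios largest in size. Further genes were named for their role, after their values were seen. Spry3 and Cebpd were not analysed here, and some genes under this rule are left out of the text. Alternatives were DESeq2 1.42.0 size factors, other scalings, filters, a prior count and other call rules.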

Additional observations from a re-analysis of the deposited data

How the results depend on the processing

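Dusp1 and Dusp16 were called lower under all 9 alternatives, and Dusp4 under all but the rule that the whole interval lie beyond 2-fold, which left 2 of the 10 genes. Spry2 was called higher only at 1.5-fold, which made 1 gene against 0. All 69 recomputed log2 ratios of the 10 genes stayed within their counting intervals, and another scaling moved them by at most 0.03. Those recomputed under another filter are the same by construction, since a filter does not change a ratio, and are no check. Over the whole table, the main setting gave 691 genes lower and 248 higher of 11972. A filter at 5 CPM, which drops Spry1, left 347 lower and 120 higher of 10077. Of the same 11972 genes, an interval wholly beyond 2-fold left 318 lower and 67 higher, and the 1.5-fold limit gave 1344 lower and 880 higher. Any gene with a count gave 1031 lower and 435 higher of 16504. The levels per kilobase of 1 transcript were computed after seeing the data. With 48 and 144 counts of Dusp4 and 23 and 34 of Spry1 in the Ch25h-/- and C57BL/6 libraries, depth limits both. No paired analysis was possible because each genotype has 1 library, and for the same reason no library could be left out.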

Other observations

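Dusp1 is also induced by glucocorticoids, so other genes with that property were looked at. Of 8 listed, 7 were analysed, and all 7 passed the filter. Of these, 2 were called lower and 0 higher (5.77% and 2.07% of all genes that passed the filter). Their median log2 ratio was -0.59, against 0.01 for all genes that passed the filter. The clock gene Per1 had 107 CPM in Ch25h-/- cells and 222 CPM in C57BL/6 cells (-1.06, interval -1.14 to -0.97). The transcription factor gene Klf9 had 79 counts in Ch25h-/- cells and 227 in C57BL/6 cells (-1.41, interval -1.80 to -1.04). Tsc22d3, which encodes the glucocorticoid-induced leucine zipper and leads the list in level, had 229 CPM in Ch25h-/- cells and 343 CPM in C57BL/6 cells (-0.59). Sgk1 stood at -0.66 without reaching 2-fold. Fkbp5 (-0.13) and Ddit4 (-0.14), also well-known glucocorticoid targets, were close to level, and Zbtb16 was on the other side at 0.36 (interval 0.12 to 0.60).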
